A study of Arabidopsis thaliana with 21 samples.

Results

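Roots of Arabidopsis thaliana Col-0 seedlings from a later harvest (ATGE_98, 3 arrays) were compared with roots from an earlier harvest (ATGE_94, 3 arrays) of plants kept on the same medium. All plants were wild-type Col-0. Continuous light, 20 °C and 0.5x GM medium with no sucrose listed as added were common to both groups, which differed in the harvest. These 6 arrays were chosen by their group names out of 21 root arrays in 7 groups. The same step was also available on 0.5x GM with 5% sucrose listed, as ATGE_99 (later, 3 arrays) against ATGE_95 (earlier, 3 arrays), and shares no array with the first pair. By the labels, most plants of ATGE_94 and ATGE_95 resembled reference plants aged 7 days. No age is stated for ATGE_98 and ATGE_99, known to be the later harvests, and the sucrose content of GM is not stated either. Nor do they say whether the arrays of a group came from separate cultures. P-values thus rest on the spread between arrays of a group, pooled over all 7 groups, and that spread may be technical. Stage, plant set and handling change together between the groups and cannot be told apart.

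A root that ages on a plate keeps dividing cells at its tips while more and more of its length consists of mature tissue, in which vascular strands thicken, a cork-like outer layer forms and outer cell layers are lost. Roots also invest in chemical defence, among others through ER bodies, compartments that store beta-glucosidases such as PYK10, and through secreted antimicrobial proteins. Older plant tissue recycles its contents through autophagy, in which ATG8 proteins coat the engulfing membrane, and through vacuolar proteases. In whole roots fewer cells of a type and less RNA per cell cannot be told apart.

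Signals were on a linear scale in arbitrary units, scaled to a common trimmed mean, and a signal below its array's 40th percentile (22.9 to 28.0 over all 21 arrays) was treated as dim. Over probe sets, arrays of ATGE_98 correlated with each other at r of 0.983 to 0.986 and arrays of ATGE_94 at 0.977 to 0.984 on the log2 scale. On the first principal component, which held 66.9% of the variance of the 6 arrays, the groups lay apart, with scores of 32.1, 33.3 and 29.9 for ATGE_98 and −32.7, −33.1 and −29.4 for ATGE_94. The second, with 11.3%, spread the ATGE_94 arrays from 19.6 (replicate 1) to −24.5 (replicate 3), whereas the ATGE_98 arrays lay between −3.60 and 3.05. For GAPDH, signal at the 3' end over signal at the 5' end, which tracks RNA integrity, came to 1.13 ± 0.0402 in ATGE_98 and 1.09 ± 0.0419 in ATGE_94 (SD, n = 3 each), but an older pair of GAPDH control probe sets gave 1.15 ± 0.164 in ATGE_98 and 0.718 ± 0.107 in ATGE_94. The actin ratio read 1.95, 2.28 and 1.97 on the ATGE_98 arrays and 1.42, 1.85 and 2.27 on the ATGE_94 arrays. The part of RNA integrity in the results below was not tested.

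The labelled tissue could be checked only in part, since most defining root markers had no probe set with a single gene in the annotation used here. EXPA7 and EXPA18, root hair expansins, and PYK10, a beta-glucosidase typical of roots, were above the dim level on all 6 arrays. The 13 tested nuclear genes of photosynthesis, which mark shoot tissue, summed to 1422 to 1597 in ATGE_98 and to 1360 to 1503 in ATGE_94, and none of them was dim on all 6 arrays. SCR and CASP1 (endodermis), CESA4, CESA7 and XCP1 (xylem), SUC2 and APL (phloem), GL2 and WER (epidermis) and SMB (root cap) were not analysed here.

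Transcript levels differed between the harvests over much of the array. Of 15284 probe sets tested with limma, 41.7% passed at an adjusted p of 0.05, 21.3% higher and 20.4% lower in ATGE_98, and most of these differences were small, 63.2% of them below 1.5-fold. At least 2-fold differences made up 4.81% of probe sets and leaned upward, with 3.51% higher and 1.30% lower; their number was 735, and 466 with a pseudocount of 6.99. In 48.4% of probe sets the 3 arrays of ATGE_98 did not overlap with the 3 of ATGE_94, 25.5% with ATGE_98 above and 22.8% with it below. Centring each array on its median shifts the comparison by 0.09 (log2). The split turns to 2360 higher and 4214 lower, against 3253 higher and 3115 lower as scaled by the authors, so calls of small changes depend on the scaling. Some changes larger than that shift also lost their call, such as bHLH34 (0.455) after median centring and PYK10 (0.334) after quantile normalization. Quantile normalization gave 2925 higher and 3505 lower.

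Genes that rose most included several that respond to microbes, drought or wounding in other settings. OSM34, an osmotin-like protein of the antifungal thaumatin family (AT4G11650), read 1789, 1922 and 1787 on the ATGE_98 arrays, against 359, 358 and 389 on the ATGE_94 arrays. It was 4.97-fold higher (log2 difference 2.31 ± 0.06, SE of the fit, adjusted p = 1.13e-17). PDF2.1, a plant defensin, was at 266, 260.5 and 256 in ATGE_98 and at 40.6, 50.7 and 51.4 in ATGE_94, 5.52-fold higher. Both genes were named by a rule that required arrays not to overlap, which held for 48.4% of all tested probe sets. HIS1-3 (AT2G18050), a linker histone known to be induced by drought, gave 764, 764 and 736 in ATGE_98, against 129, 134 and 147 in ATGE_94, a 5.52-fold rise (log2 2.47 ± 0.12, adjusted p = 5.77e-13). Of 7 histone genes tested, HIS1-3 was the one called higher and none was called lower, beside 21.3% and 20.4% over all probe sets. Without ATGE_94 replicate 1, 2 histone genes were called lower. Among genes picked after their values were seen, STZ, a zinc finger repressor of the stress response, read 340.1, 343 and 344 in ATGE_98 and 74.8, 113 and 107 in ATGE_94. ChiC, a class V chitinase, read 280, 268.5 and 306 in ATGE_98, against 88.2, 77.1 and 75.1 in ATGE_94. NAMT1, a nicotinate N-methyltransferase, was at 94.3 ± 9.99 in ATGE_98 and at a dim 22.1 ± 2.03 in ATGE_94 (SD, n = 3 each), at least 3.93-fold higher. SP1L2, a member of the SPIRAL1-like family of microtubule-associated proteins, was likewise dim in ATGE_94, with signals of 47.5, 73.8 and 54.3 in ATGE_98 against 13.4, 9.50 and 16.6.

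**Figure D1:**
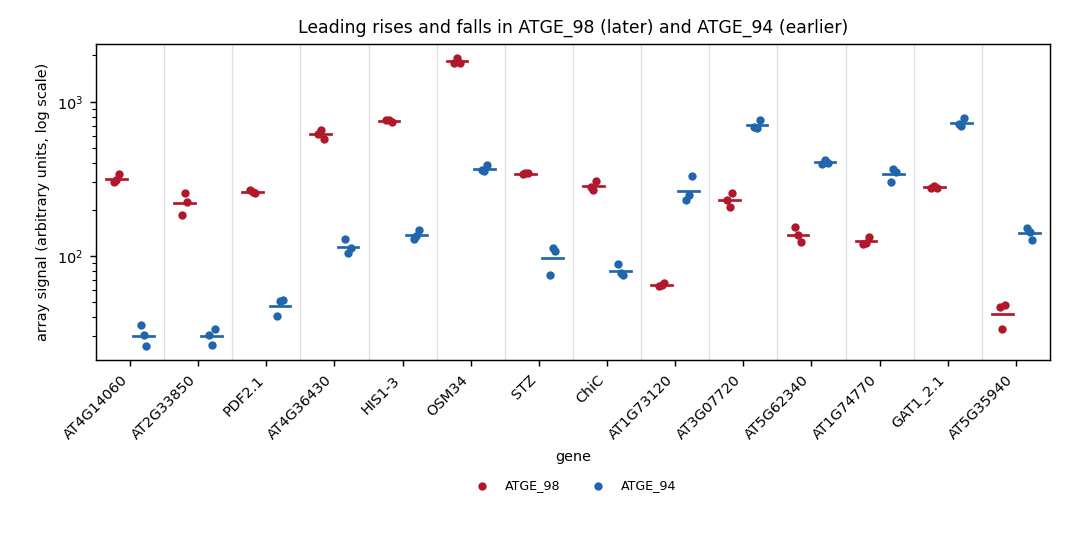
Array signals (arbitrary units, log scale) of 14 genes with large rises or falls, 1 point per array, ATGE_98 left of ATGE_94 for each gene, bars at the geometric mean. The 8 genes on the left are higher and the 6 on the right lower on every ATGE_98 array than on any ATGE_94 array. Such separation was part of the rule for naming the largest rises and falls, and held for 48.4% of all tested probe sets. OSM34 lies at 1787 to 1922 against 358 to 389, and GAT1_2.1 at 274 to 286 against 699 to 780.

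Some of the largest rises were in loci that carry no symbol in the annotation used here. AT4G14060 read 302.5, 311 and 341 in ATGE_98, against 35.4, 30.5 and 26.0 in ATGE_94, 10.5-fold higher (log2 3.39 ± 0.12, adjusted p = 1.27e-15). AT2G33850 rose 7.30-fold and AT4G36430 5.39-fold. AT5G53880 was at 118, 131 and 121 in ATGE_98 and at a dim 7.10, 8.60 and 18.0 in ATGE_94, at least 5.15-fold higher.

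Berberine bridge enzyme-like genes encode secreted flavin oxidases that include oxidases of cell wall fragments. Their list had the largest fitted median rise among those with 10 or more tested members other than organelle genes. Of 14 tested 11 rose and 1 fell, beside 21.3% and 20.4% over all probe sets, and 7 rose and 0 fell with the 60th percentile filter. The fitted median log2 difference was 1.12, against 0.02 over all tested probe sets. It includes members dim on all ATGE_94 arrays, whose rises are known only as lower bounds. AT5G44400 read 132, 145 and 143 in ATGE_98 and a dim 14.4, 15.1 and 12.8 in ATGE_94, at least 5.85-fold higher (adjusted p = 1.13e-17). In the run of neighbouring loci AT1G26380, AT1G26390, AT1G26410 and AT1G26420 all 4 were higher, at 66.7 ± 6.09, 39.9 ± 1.70, 36.4 ± 0.909 and 45.1 ± 2.02 in ATGE_98, against 20.5 ± 5.00, 4.87 ± 2.27, 4.21 ± 3.95 and 9.06 ± 5.77 in ATGE_94 (SD, n = 3 each). In ATGE_94 all but AT1G26380 were dim on all arrays, so that AT1G26390, AT1G26410 and AT1G26420 were at least 1.67-fold, 1.52-fold and 1.88-fold higher, and close copies of this kind can share probes. AT1G30760 rose 2.61-fold and AT5G44410 1.98-fold. The member that fell, AT2G34810, was dim in ATGE_98 (14.05, 11.2 and 18.6, against 34.8, 26.9 and 22.5 in ATGE_94), and its call was lost without ATGE_98 replicate 2 (−0.77, adjusted p = 0.0873) or ATGE_94 replicate 1 (−0.78, adjusted p = 0.0873).

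Regulators of defence rose by smaller amounts. Of 6 tested WRKY transcription factors 5 rose and none fell, beside 21.3% higher and 20.4% lower over all probe sets. WRKY53, a regulator of leaf senescence and defence, read 73.4, 81.7 and 82.6 in ATGE_98 and 40.7, 36.9 and 39.4 in ATGE_94, 2.03-fold higher (log2 1.02 ± 0.18, adjusted p = 6.4e-05). WRKY47 rose 1.41-fold, WRKY20 1.30-fold and WRKY6 1.24-fold, while ZAP1 had a log2 difference of 0.12 (adjusted p = 0.345). The rise of WRKY22, 0.41 with all arrays, was lost without ATGE_94 replicate 3 (0.31, adjusted p = 0.0753). Of 6 genes listed for salicylate and pathogen response 5 rose and 1 fell, beside the same shares over all probe sets. GRX480, a glutaredoxin that binds TGA transcription factors, showed the largest rise of these, with 151, 171 and 169.5 in ATGE_98 against 58.3, 54.2 and 56.9 in ATGE_94. The chitinase-annotated CHI (AT2G43570) rose 1.56-fold. BIK1, a receptor-associated kinase of immune signalling, had overlapping arrays and a log2 difference of 0.33, lost without ATGE_98 replicate 1 (0.22, adjusted p = 0.114) or ATGE_94 replicate 3 (0.26, adjusted p = 0.0719). UGT76B1, the glycosyltransferase that conjugates salicylate and isoleucic acid, fell, at 223, 168 and 187 in ATGE_98 against 323, 350.1 and 336 in ATGE_94.

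Of 10 genes listed for jasmonate 6 rose and 2 fell, beside 21.3% and 20.4% over all probe sets. The transcription factors MYC4 and MYC3, which activate jasmonate responses, rose 1.80-fold and 1.39-fold, with MYC4 at 108, 83.9 and 107 in ATGE_98 and 60.2, 59.98 and 45.3 in ATGE_94. The defensins of this list went in both directions: PDF2.1 and PDF1.4 rose, the second from dim signals (41.9, 38.9 and 34.5 in ATGE_98, against 10.8, 7.93 and 13.96 in ATGE_94), and PDF2.5 fell to 87.0, 70.6 and 66.4 in ATGE_98, against 137, 178 and 163 in ATGE_94. JRG21, a jasmonate-responsive dioxygenase, is counted among the rises but was dim in both groups, and its call was lost after quantile normalization (adjusted p = 0.0643) and without ATGE_94 replicate 1 or any of the ATGE_98 arrays (adjusted p of 0.0574 to 0.119). Of 11 calcium signalling genes 6 rose and none fell, beside the same shares over all probe sets. Of these genes 3 rose without ATGE_94 replicate 2, after quantile normalization and after median centring. CML38 and CML37, calmodulin-like proteins induced by wounding, are counted among the rises but were dim in both groups or nearly so, with means of 23.0 and 18.7 in ATGE_98 and 9.70 and 3.28 in ATGE_94.

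**Figure D2:**
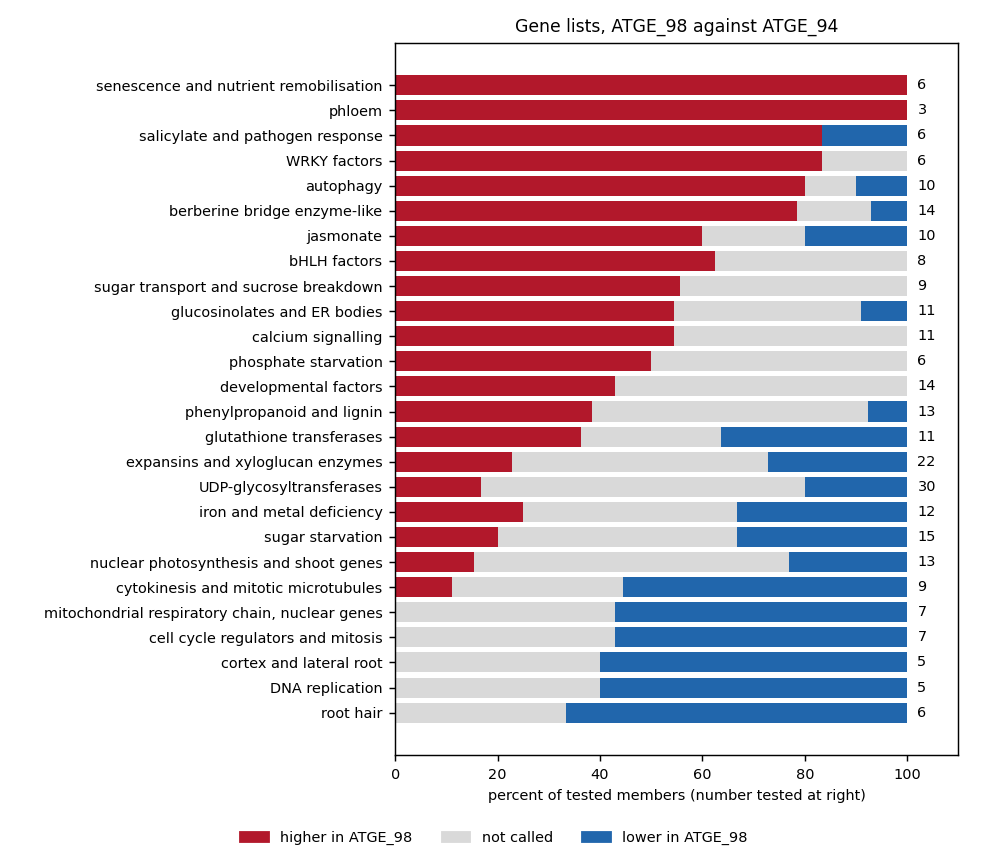
Share of the tested members of 26 gene lists that were higher (red), not called (grey) or lower (blue) in ATGE_98 than in ATGE_94 at an adjusted p of 0.05, with the number of members tested at the right. Over all 15284 probe sets 21.3% were higher and 20.4% lower. In the senescence and phloem lists all tested members are red, and the cell cycle, cortex, DNA replication and root hair lists hold no red.

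All 6 tested members of the senescence list, 3 vacuolar proteases, SAG101, WRKY53 and WRKY6, were higher in ATGE_98, beside 21.3% over all probe sets. Their median log2 difference was 0.76. WRKY53 and WRKY6 are also counted in the WRKY list above. The proteasome and ubiquitin list was split, with 6 of 24 tested higher, 4 lower and a median of 0.0015. Those counts were near the shares over all probe sets (21.3% and 20.4%). In this list 3 were higher without ATGE_94 replicate 1 or replicate 2, after median centring or with the compared arrays alone. Of the vacuolar processing enzymes, cysteine proteases that mature vacuolar proteins, ALPHA-VPE read 95.7, 97.2 and 107 in ATGE_98 and 60.2, 59.2 and 62.0 in ATGE_94 (1.65-fold, adjusted p = 0.000245). BETA-VPE rose 1.74-fold. GAMMA-VPE was at 1149, 1324 and 1275 in ATGE_98, against 982, 909 and 860.1 in ATGE_94, 1.36-fold higher (log2 0.45 ± 0.08, adjusted p = 5.26e-05). None of the 3 overlapped between groups, beside 48.4% of all tested probe sets whose arrays did not overlap. SAG101, a lipase-like partner of EDS1 in immunity that was first found in senescing leaves, read 49.4, 34.7 and 22.7 in ATGE_98, with replicate 3 dim, and a dim 18.7, 17.7 and 19.6 in ATGE_94.

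In the autophagy list 8 of 10 tested genes rose and 1 fell, beside 21.3% and 20.4% over all probe sets. The median log2 difference of the list was 0.51. ATG8B (213.5, 262 and 231 in ATGE_98, against 79.3, 97.5 and 94.4 in ATGE_94) rose 2.60-fold (log2 1.38 ± 0.10, adjusted p = 1.35e-10). ATG8G rose 1.79-fold, and ATG8D, ATG8C, ATG8E and the gene annotated as APG8H (AT3G15580) by 1.42-fold to 1.51-fold. ATG8F was at 852, 1049 and 901 in ATGE_98 and 889, 826 and 966 in ATGE_94, with overlapping arrays and a log2 difference of 0.06 ± 0.07 (adjusted p = 0.539). ATG8H (AT3G06420) fell, at 217, 216 and 184 in ATGE_98 against 285, 248 and 277 in ATGE_94. The smaller rises of APG8A and ATG3, the enzyme that conjugates ATG8 to lipid, were each lost when 1 array was left out: APG8A at 0.24 (adjusted p = 0.0523) without ATGE_94 replicate 1, and ATG3 at 0.17 (adjusted p = 0.117) without ATGE_98 replicate 2 or 0.21 (adjusted p = 0.0703) without ATGE_94 replicate 2.

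Genes of ER bodies rose. NAI1, the bHLH factor that turns on ER body genes, read 260, 221 and 232 in ATGE_98, against 162, 132 and 109 in ATGE_94, 1.79-fold higher (log2 0.84 ± 0.11, adjusted p = 1.42e-06). JAL22, a jacalin-related lectin, was at 1449, 1601 and 1404 in ATGE_98 and 723, 667 and 715 in ATGE_94, 2.11-fold higher. NAI2, needed to form the bodies, rose 1.25-fold, PYK10 1.26-fold and JAL33 1.402-fold. PYK10 and JAL33 had very high signals, with PYK10 at 3242, 3466 and 3178 in ATGE_98 against 2447, 2359 and 3091 in ATGE_94. After quantile normalization the rise of PYK10 was not called (0.09, adjusted p = 0.109). JAL34, at 2993 ± 117 in ATGE_98 and 2608 ± 227 in ATGE_94 (SD, n = 3 each), turned to −0.02 (adjusted p = 0.748) after quantile normalization and lost its call without ATGE_98 replicate 2 (0.17, adjusted p = 0.0605) or ATGE_94 replicate 2 (0.15, adjusted p = 0.0936). The glucosinolate transporter GTR2 rose 1.30-fold. In the list of glucosinolate and ER body genes 6 of 11 tested rose and 1 fell, beside 21.3% and 20.4% over all probe sets. The fall, of AT2G31790, was a call lost with the compared arrays alone (adjusted p = 0.0555).

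All 3 tested members of the phloem list rose, beside 21.3% over all probe sets. CLE44 and CLE41 encode the peptide that phloem sends to the cambium to keep it dividing and to hold back xylem formation. CLE44 read 83.8, 88.9 and 81.7 in ATGE_98, against 21.3, 24.5 and 24.7 in ATGE_94, 3.61-fold higher (log2 1.85 ± 0.15, adjusted p = 1.69e-09). CLE41 was at 152, 170.4 and 155.5 in ATGE_98 and 75.7, 87.3 and 94.4 in ATGE_94, 1.86-fold higher. OPS, a membrane protein of early phloem, was dim in ATGE_94 and at least 1.48-fold higher. Of 4 tested genes of xylem and secondary walls 2 rose and 1 fell, beside 21.3% and 20.4% over all probe sets. In this list 1 rose without any of ATGE_98 replicates 2 and 3 and ATGE_94 replicates 1 and 2. PHV, an HD-ZIP III factor of the xylem side, rose 1.31-fold, and IRX15-L, a xylan synthesis protein, fell 1.37-fold.

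Of 13 genes listed for phenylpropanoids and lignin 5 rose and 1 fell, beside 21.3% and 20.4% over all probe sets. CCOAMT, a caffeoyl-CoA methyltransferase, read 61.4, 58.7 and 58.3 in ATGE_98 against 19.2, 17.7 and 24.4 in ATGE_94, 2.93-fold higher. UGT72E2, which glucosylates lignin precursors, was at 912, 957 and 898 in ATGE_98 and 533, 452 and 441 in ATGE_94, 1.95-fold higher (adjusted p = 8.86e-10). Chosen after their values were seen, CCR2 (AT1G80820), a cinnamoyl-CoA reductase, rose 2.41-fold and FACT, which makes caffeate esters of root waxes, 1.93-fold, with FACT at 494, 495 and 498 in ATGE_98 and 285, 248.5 and 238 in ATGE_94. PRX52, a class III peroxidase of lignin formation, was dim on all arrays of both groups.

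Several genes of cell division were lower in the later roots. Of 7 tested cell cycle genes 4 fell and none rose, beside 20.4% and 21.3% over all probe sets. The list summed to 492 to 535 in ATGE_98, against 687 to 740 in ATGE_94. AUR1, a mitotic Aurora kinase, read 73.7, 68.2 and 70.3 in ATGE_98 and 108, 102 and 121 in ATGE_94, 1.55-fold lower (log2 −0.63 ± 0.08, adjusted p = 2.43e-06). BUB3.1, which acts at the spindle and in cytokinesis, was at 39.4, 33.2 and 35.1 in ATGE_98, against 56.3, 59.5 and 58.5 in ATGE_94, 1.62-fold lower. SIM, an inhibitor of cyclin-dependent kinases that favours endoreduplication over division, fell as well, 1.36-fold. With means of 321 in ATGE_98 and 437 in ATGE_94, SIM made up the largest part of the summed signals of the list. AUR2 was near the dim level and its call was lost without any of ATGE_98 replicates 2 and 3 and ATGE_94 replicates 1 and 2, with log2 differences of −0.40, −0.34, −0.27 and −0.36 (adjusted p = 0.0577, 0.0908, 0.16 and 0.0843). AUR3 had a log2 difference of −0.28 (adjusted p = 0.0673). BUBR1 was dim on all 6 arrays and HTR12, the centromeric histone, on all but 1, and neither was called.

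Of 5 DNA replication genes 3 fell and none rose, beside 20.4% and 21.3% over all probe sets, but without ATGE_94 replicate 1 only PRL was called. PRL, the MCM7 subunit of the replicative helicase, read 58.2, 64.6 and 53.6 in ATGE_98 and 78.0, 83.5 and 99.6 in ATGE_94, 1.48-fold lower (log2 −0.56 ± 0.10, adjusted p = 7.11e-05). ICU2, the catalytic subunit of polymerase alpha, was dim on all ATGE_98 arrays and on 1 ATGE_94 array. ICU2 lost its call without ATGE_94 replicate 1 (−0.52, adjusted p = 0.0508) or replicate 2 (−0.42, adjusted p = 0.1) and without ATGE_98 replicate 1 (−0.47, adjusted p = 0.0722), and POLA3, a primase subunit, without ATGE_94 replicate 1 (−0.37, adjusted p = 0.0915) or ATGE_98 replicate 2 (−0.44, adjusted p = 0.0579). ASF1B, a histone chaperone of S phase, and FBL17, an F-box protein that removes cell cycle inhibitors, both chosen after their values were seen, fell 1.72-fold and 1.80-fold, with FBL17 at 81.6, 88.1 and 76.8 in ATGE_98 against 145, 164 and 135 in ATGE_94.

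Tubulins, which build the spindle and the arrays that guide wall deposition, mostly fell. TUB1 read 171, 167.5 and 166 in ATGE_98, against 332, 310.1 and 340.4 in ATGE_94, 1.95-fold lower (log2 −0.96 ± 0.06, adjusted p = 2.33e-11). TUA6 fell 1.41-fold, to 843, 883 and 825 in ATGE_98 against 1222, 1178 and 1188 in ATGE_94, and TUB5 fell 1.49-fold. TUA1 was higher in ATGE_98 (94.8, 96.4 and 95.3, against 88.0, 68.6 and 65.8 in ATGE_94), a call lost without ATGE_94 replicate 2 (0.33, adjusted p = 0.0642) or replicate 3 (0.30, adjusted p = 0.0752). The list of cytokinesis genes and tubulins held 5 falls and 1 rise among 9 tested, beside 20.4% and 21.3% over all probe sets. It held 3 falls without ATGE_98 replicate 1. Falls of TUB6 and TUB9 were below 1.2-fold; without ATGE_98 replicate 1 they were −0.15 and −0.19 (adjusted p = 0.0966 and 0.0888). TUB6 was also lost without ATGE_98 replicate 3 (−0.15, adjusted p = 0.0986) or ATGE_94 replicate 3 (−0.12, adjusted p = 0.149), and TUB9 without ATGE_98 replicate 2 (−0.20, adjusted p = 0.075) or ATGE_94 replicate 1 (−0.19, adjusted p = 0.0903). ACT11, an actin chosen after its values were seen, fell 1.92-fold (79.4, 101 and 88.1 in ATGE_98, against 153, 201 and 165 in ATGE_94).

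Wall-loosening genes split. Of 22 tested expansins and xyloglucan enzymes 5 rose and 6 fell, beside 21.3% and 20.4% over all probe sets. EXPA9 fell 2.04-fold, to 76.8, 57.8 and 76.9 in ATGE_98 against 151, 138 and 140 in ATGE_94, and XTH16 fell 2.16-fold. EXPA4, at 626, 600.1 and 602 in ATGE_98 and 469, 401 and 390 in ATGE_94, rose 1.45-fold, and EXLA1 rose 1.49-fold. EXLA3, an expansin-like protein, read 39.98, 50.3 and 39.7 in ATGE_98 and a dim 12.4, 10.9 and 3.48 in ATGE_94. SKU5, which affects the direction of root growth, and its relative sks15 fell 1.61-fold and 2.95-fold.

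Root hair and cortex genes were lower. Of 6 tested root hair genes 4 fell and none rose, beside 20.4% and 21.3% over all probe sets. Their summed signals were 1295 to 1376 in ATGE_98 and 1590 to 1698 in ATGE_94. EXPA7 read 94.2, 75.1 and 94.3 in ATGE_98, against 147, 128 and 149 in ATGE_94. EXPA18 was at 105, 109 and 118 in ATGE_98, against 159, 152 and 164 in ATGE_94, 1.43-fold lower (log2 −0.52 ± 0.07, adjusted p = 6.88e-06). Of 5 cortex and lateral root genes 3 fell and none rose, beside the same shares over all probe sets. AT1G62510 fell 2.68-fold, at 78.7, 81.0 and 82.6 in ATGE_98 and 184, 232.5 and 236 in ATGE_94, and AT1G09750 1.71-fold. AT1G62500, also counted among the falls, was dim in ATGE_98 and on 2 arrays of ATGE_94. Whether these tissues made up less of the later roots was not tested.

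Among transcription factors of development 6 of 14 tested rose and none fell, beside 21.3% and 20.4% over all probe sets. Without ATGE_98 replicate 3 AGL16 was called lower (−0.18, adjusted p = 0.0461). AGL42, a MADS-box gene known in roots from the quiescent centre, read 120, 104.5 and 108.5 in ATGE_98, against 29.2, 33.5 and 44.4 in ATGE_94, 3.15-fold higher (log2 1.65 ± 0.11, adjusted p = 9.18e-11). AGL18 rose 1.38-fold. AGL21, a MADS-box regulator of lateral roots, had a log2 difference of 0.36, lost without ATGE_98 replicate 2 (0.26, adjusted p = 0.117) or ATGE_94 replicate 3 (0.33, adjusted p = 0.0596). AGL19 was dim in both groups. IAA18, a repressor of auxin response, was at 188, 201 and 171.5 in ATGE_98 and 120, 103 and 106 in ATGE_94, 1.71-fold higher. Outside this list, BZIP61 was among the largest falls, 2.87-fold lower, with 21.2, 34.8 and 33.2 in ATGE_98 against 84.2, 93.9 and 73.4 in ATGE_94.

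Genes of carbon supply moved in both directions. Of 9 tested sugar transporters and sucrose enzymes 5 rose and none fell, beside 21.3% and 20.4% over all probe sets. SWEET17 and SWEET16, vacuolar fructose carriers, read 532.5, 504 and 546 and then 424.5, 402.5 and 427 in ATGE_98, against 361, 380 and 371 and then 320.0, 325 and 336 in ATGE_94, which made 1.42-fold and 1.28-fold rises. TMT2, which loads sugars into the vacuole, rose 1.43-fold, and SWEET13, a sucrose carrier, was dim in ATGE_94 and rose at least 1.25-fold. The rise of SWEET11 (0.33) was lost without ATGE_98 replicates 1 or 2 or ATGE_94 replicates 1 or 2, with values of 0.27, 0.33, 0.33 and 0.29 (adjusted p = 0.115, 0.0547, 0.0557 and 0.0884). TMT1 read 731, 706 and 742 in ATGE_98 and a more spread 511, 528 and 809 in ATGE_94, and was not called (0.27, adjusted p = 0.0942), but was without ATGE_94 replicate 3 (0.48, adjusted p = 0.000729), after quantile normalization (0.34, adjusted p = 0.0278) and with the replicate letter as a block (adjusted p = 0.0475).

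In the list of sugar starvation genes 5 of 15 tested fell and 3 rose, beside 20.4% and 21.3% over all probe sets. AT1G73120 was 4.11-fold lower, with 63.4, 64.5 and 66.2 in ATGE_98 against 229, 249.5 and 328 in ATGE_94 (log2 −2.04 ± 0.15, adjusted p = 4.27e-10). IVD and MCCA, enzymes of leucine breakdown, fell 1.51-fold and 1.46-fold, with IVD at 264, 276 and 272 in ATGE_98 and 380.4, 442 and 404 in ATGE_94, and ALDH6B2, of valine breakdown, fell 1.29-fold. MCCB, the partner subunit of MCCA, had overlapping arrays (log2 −0.13, adjusted p = 0.371). ETFQO, at 86.3 ± 0.114 in ATGE_98 and 104 ± 7.52 in ATGE_94 (SD, n = 3 each), lost its call when any array but ATGE_94 replicate 3 was left out, with log2 differences of −0.26 to −0.21 and adjusted p of 0.0723 to 0.142. AT3G15450, among the 10 brightest probe sets, was 1.11-fold higher, and its sign turned after quantile normalization (−0.04, adjusted p = 0.503); the call was lost without ATGE_98 replicates 2 or 3 (0.10 and 0.15, adjusted p = 0.18 and 0.0697) or ATGE_94 replicates 1 or 2 (0.14 and 0.12, adjusted p = 0.0946 and 0.158). GAT1_2.1, a protein with a glutamine amidotransferase domain, fell 2.62-fold, to 278, 286 and 274 in ATGE_98 against 720.0, 699 and 780 in ATGE_94 (log2 −1.39 ± 0.09, adjusted p = 1.71e-11). ASPGB1, an asparaginase chosen after its values were seen, fell 1.74-fold.

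Among 12 tested genes of the iron and metal deficiency list 4 fell and 3 rose, beside 20.4% and 21.3% over all probe sets. After median centring 1 member of the list was called higher. The largest fall was that of AT3G07720, 3.08-fold, with 230.4, 207 and 254 in ATGE_98, against 689, 676 and 765 in ATGE_94 (log2 −1.62 ± 0.10, adjusted p = 1.11e-11). AT3G13610 and BGLU42, a glucosidase of coumarin release, fell 1.30-fold and 1.28-fold. ILR3 and bHLH104, which act upstream in the iron response, rose 1.33-fold and 1.25-fold, the call of bHLH104 being lost after median centring (0.24, adjusted p = 0.0609). bHLH34 rose by 0.45, a call lost without ATGE_98 replicate 2 (0.38, adjusted p = 0.109) or ATGE_94 replicates 1 or 2 (0.43 and 0.42, adjusted p = 0.0717 and 0.0834), and the zinc transporter ZIP9 fell from near the dim level, a call lost without ATGE_98 replicate 2 (−0.46, adjusted p = 0.0774) or ATGE_94 replicates 1 or 3 (−0.49 and −0.44, adjusted p = 0.0632 and 0.0852). BHLH101, a target of that response, read 21.1, 12.3 and 18.2 in ATGE_98 and 43.7, 39.7 and 42.0 in ATGE_94 without passing in the fit over all arrays (log2 −1.31 ± 0.57, adjusted p = 0.0673), and passed in a fit of the compared arrays alone (adjusted p = 0.000455). LPR2, a ferroxidase of the root response to low phosphate, read 170.2, 170.3 and 181.5 in ATGE_98 against 91.5, 73.6 and 87.3 in ATGE_94, 2.08-fold higher, while its relative LPR1 had a log2 difference of −0.13 (adjusted p = 0.434).

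Of 11 glutathione transferases 4 rose and 4 fell, beside 21.3% and 20.4% over all probe sets. They were led by GSTU22 (1.77-fold higher, 891, 775 and 757 in ATGE_98 against 414, 449 and 503 in ATGE_94) and GSTU28 (1.82-fold lower). Of 30 UDP-glycosyltransferases, which attach sugars to small molecules, 5 rose and 6 fell, near the shares over all probe sets (21.3% and 20.4%), and 11 fell after median centring. UGT76E2 was dim in ATGE_98 (18.1, 10.5 and 9.28) against 67.0, 48.4 and 40.4 in ATGE_94, at least 1.95-fold lower.

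Many organelle-encoded transcripts were higher in ATGE_98, whereas some nuclear genes of the respiratory chain were lower. Of 12 mitochondrion-encoded genes, counted once each by their brightest probe set, 9 rose and none fell, beside 21.3% and 20.4% over all probe sets. Their median log2 difference was 1.03. The mitochondrial nad4, a subunit of complex I, was at 423, 356.5 and 343 in ATGE_98 and 96.3, 111 and 193 in ATGE_94. In cox1, a subunit of cytochrome oxidase, ATGE_94 replicate 3 overlapped with the later arrays (222, 194 and 182 in ATGE_98, against 64.2, 65.0 and 183 in ATGE_94). Across the 12 genes ATGE_94 replicate 3 stood a median 0.64 (log2) above the mean of replicates 1 and 2, and without it 11 genes rose, with a median of 1.27. That array also had the highest actin 3'/5' ratio of its group, and the part of RNA quality in the organelle result was not tested.

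Of 7 tested nuclear genes of the respiratory chain 4 fell and none rose, beside 20.4% and 21.3% over all probe sets. SDH2-1, the iron-sulfur subunit of complex II, read 564, 618 and 523 in ATGE_98, against 829, 786 and 829 in ATGE_94, 1.44-fold lower (log2 −0.52 ± 0.07, adjusted p = 4.88e-06), its duplicate SDH2-2 fell 1.26-fold, and MPPBETA, which processes imported proteins in complex III, 1.28-fold. The fourth, FRO1, a subunit of complex I, fell 1.11-fold and lost its call when any array but ATGE_94 replicate 1 was left out, with log2 differences of −0.16 to −0.12 and adjusted p of 0.0701 to 0.147.

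The 66 plastid-encoded probe sets held 35 that rose and 2 that fell, beside 21.3% and 20.4% over all probe sets, with a median of 0.51. Without ATGE_94 replicate 2 the median was 0.33, with 28 that rose and 5 that fell, and 1 fell without ATGE_94 replicate 1 or ATGE_98 replicate 2. The rise was largest in the subunits of the plastid NADH dehydrogenase (6 of 8, median 1.01) and the plastid ribosome (12 of 15, median 0.81), and smaller in the photosystems (7 of 20 higher, 2 lower, median 0.26). The ribosomal protein gene rps19 read 666, 706 and 570 in ATGE_98, against 289, 248 and 267 in ATGE_94, and ndhD 198, 226.5 and 196 against 77.5, 70.7 and 135. The photosystem genes psbE and psaA went the other way. psbE was at 263, 165 and 235 in ATGE_98, against 389, 419 and 328 in ATGE_94. psaA was at 75.6, 63.0 and 91.7 in ATGE_98, against 241, 125 and 97.0 in ATGE_94, and its call was lost without ATGE_94 replicate 1 (−0.54, adjusted p = 0.158) or ATGE_98 replicate 2 (−0.78, adjusted p = 0.0785).

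**Figure D3:**
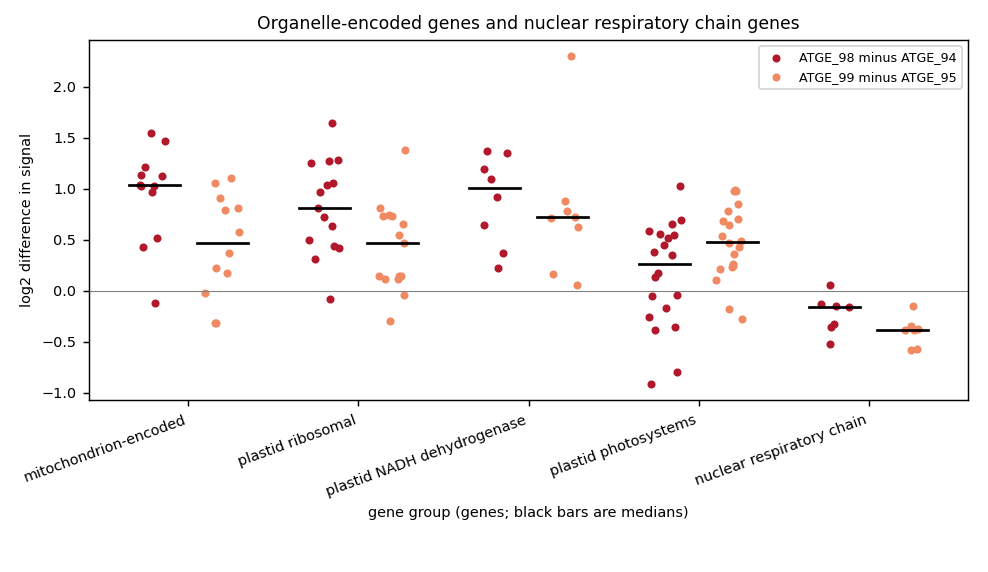
Log2 differences in signal between harvests for mitochondrion-encoded genes, plastid-encoded genes of 3 groups and nuclear genes of the respiratory chain, 1 point per gene, ATGE_98 minus ATGE_94 (red) left of ATGE_99 minus ATGE_95 (orange), black bars at medians. Without added sucrose the medians are 1.03 for mitochondrial genes and −0.16 for nuclear respiratory chain genes.

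Many of the differences were also found on the plates that had sucrose added. Between ATGE_99 and ATGE_95 the share of probe sets called was 47.9%, with 27.9% up and 20.0% down in ATGE_99. That lean depended on the scaling: 4270 were higher and 3057 lower as scaled by the authors, 2346 and 5231 after median centring, and 3227 and 3723 after quantile normalization. Over probe sets, which are not independent, the log2 differences of both pairs correlated at r = 0.71 (Spearman rho 0.66, n = 15284). In all, 2230 probe sets were higher in both later groups, 35.0% of the calls without and 30.4% of the calls with added sucrose, and 1890 lower in both. Of probe sets at least 2-fold higher in ATGE_98, 88.4% were also called higher in ATGE_99, and of those at least 2-fold lower 73.4% were also called lower. CLE44, ATG8B, TUB1 and SDH2-1 had log2 differences of 1.97, 1.35, −0.86 and −0.59 with sucrose, and in none of them was the difference between the pairs called.

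The test of the difference itself, ATGE_98 minus ATGE_94 less ATGE_99 minus ATGE_95, passed for 12.5% of probe sets, with the effect without sucrose above for 5.44% and below for 7.07%. Of these 1911 probe sets 831 lay above and 1080 below, against 1412 and 653 after median centring and 847 and 855 after quantile normalization, and without ATGE_94 replicate 1 the total was 1237. GAT1_2.1, which fell without sucrose, averaged 164 in ATGE_99 and 161.5 in ATGE_95, a difference of −1.42 ± 0.12 (log2, adjusted p = 7.75e-08). AT3G07720 fell by 1.62 without and by 0.42 with sucrose, and AT5G35940 by 1.74 and 0.14. IVD and MCCA had log2 differences of −0.59 and −0.54 without and −0.01 and −0.07 with sucrose. The difference between the pairs was −0.59 ± 0.09 and −0.47 ± 0.10 (adjusted p = 0.000212 and 0.00297). MGL, a methionine-degrading lyase, showed the reverse: it read 291, 285 and 310.4 in ATGE_98 and 275, 267 and 277 in ATGE_94, but averaged 224 in ATGE_99 and 61.6 in ATGE_95. AT1G19530 likewise differed by −0.08 without sucrose and 2.25 with it.

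The effects on ER body genes differed between the media. JAL22 rose by 1.08 without and 0.22 with sucrose (difference 0.86 ± 0.09, adjusted p = 1.66e-06), PYK10 by 0.33 against −0.12, and NAI2 by 0.33 against −0.05. In 6 of the 11 tested genes of the glucosinolate and ER body list the effect without sucrose was the higher at the threshold, beside 5.44% over all probe sets. In nuclear photosynthesis genes 8 of 13 rose in ATGE_99 and none fell, beside 27.9% and 20.0% over all probe sets. In ATGE_98 2 of 13 were higher and 3 lower, near the shares of 21.3% and 20.4% over all probe sets. The difference between the pairs was called, lower without sucrose, for 4, beside 7.07% over all probe sets. LHCB4.1, an antenna protein of photosystem II, rose by 0.61 without and 1.10 with sucrose, and PSAN, of photosystem I, had −0.49 and 0.14. Without ATGE_98 replicate 1 or ATGE_94 replicate 3 the count in ATGE_98 was 1 higher and 1 lower, and without ATGE_94 replicate 2 it was 1 higher. It was 5 higher with the compared arrays alone, 4 with a pseudocount and 1 with the 60th percentile filter. HIS1-3 and CHI rose more with sucrose, by 3.28 and 2.15, against 2.47 and 0.64 without, and OSM34 and PDF2.1 rose more without, by 2.31 and 2.47, against 1.76 and 1.45 with it. BGLU28, a glucosidase known from sulfur deficiency, was dim in ATGE_98, ATGE_94 and ATGE_95 and reached a mean of 276 in ATGE_99.

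**Figure D4:**
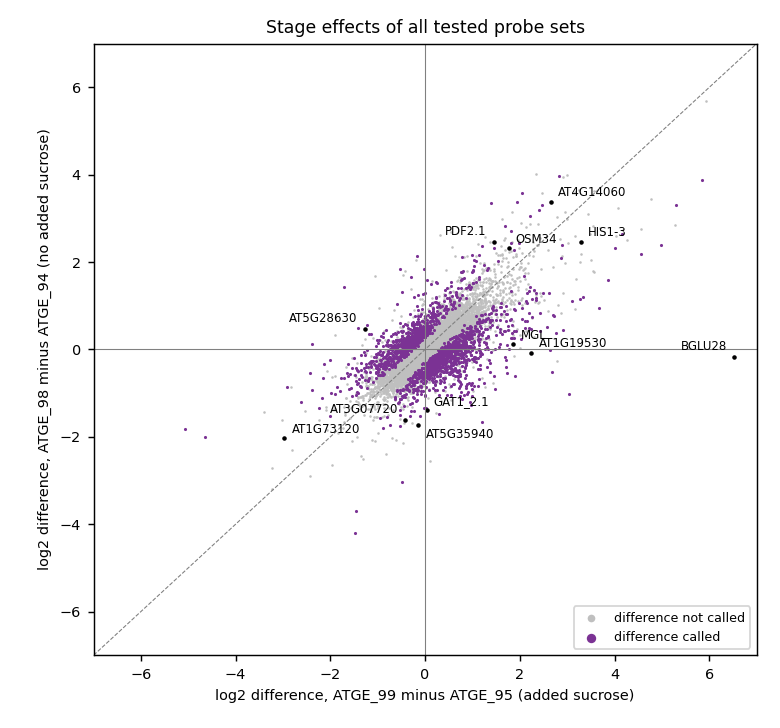
Log2 difference ATGE_98 minus ATGE_94 (y axis, no added sucrose) against ATGE_99 minus ATGE_95 (x axis, added sucrose) for 15284 probe sets, with the 12.5% whose difference between the pairs was called in purple and the diagonal of equal effects dashed. GAT1_2.1 and AT5G35940 lie low near x = 0, and MGL, AT1G19530 and BGLU28 lie right near y = 0.

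**Figure D5:**
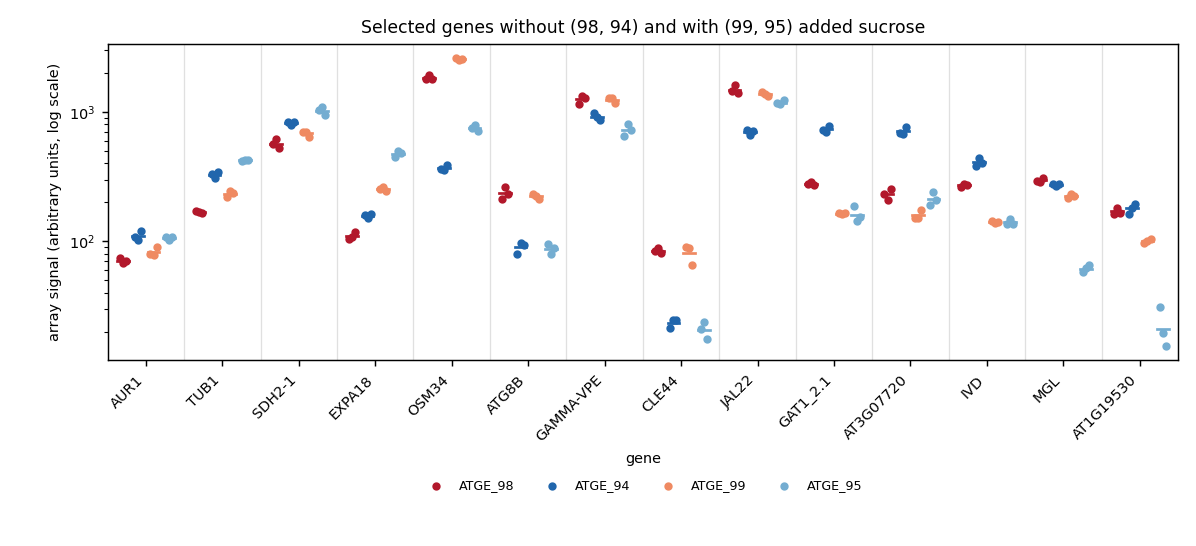
Array signals (arbitrary units, log scale) of 14 genes, 1 point per array, in ATGE_98 and ATGE_94 (no added sucrose) and ATGE_99 and ATGE_95 (added sucrose), bars at the geometric mean. OSM34, ATG8B and CLE44 are higher and TUB1 is lower in the later group of both pairs. GAT1_2.1, AT3G07720 and IVD shift mainly between ATGE_98 and ATGE_94, and MGL and AT1G19530 mainly between ATGE_99 and ATGE_95.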

How the data were processed

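RNA of roots was measured on 21 Affymetrix ATH1 arrays. The deposited values are signal intensities, on a linear scale; MAS5 is named in the submitters' processing notes, without version or settings in the sources used. With 2% of the values trimmed from each end every array averaged 100.01, so a common scaling had been applied before deposit, and it was kept. Control probe sets (64 of 22810) were left out. A probe set was tested if it exceeded the 40th percentile of the array on 3 or more of the 21 arrays, which 15284 did. All 7 groups entered 1 fit of log2 signals in limma 3.58.1 (R 4.3.3; lmFit, contrasts.fit, eBayes with an intensity trend), leaving 14 residual degrees of freedom. P-values are two-sided and adjusted by Benjamini-Hochberg over all 15284, with a threshold of 0.05. The fit was tested on simulated data. Tables and figures were made with Python 3.11.15, pandas 2.3.3, numpy 2.4.6 and matplotlib 3.10.9.

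Names came from the platform annotation, which gives 1 gene for 8331 of the tested probe sets. The members, the 69 gene lists and the comparison were chosen with earlier results of these data known. A list needed 3 tested members, and its counts cover tested members with a named probe set only, by the brightest probe set of a gene. By the rule for names, these were the 20 largest rises and the 20 largest falls whose arrays did not overlap and whose brighter group was above the dim level, the 10 largest differences between the pairs each way, list members, and the 10 brightest probe sets. The text gives some of these, chosen with their values known, and says where a gene is from outside the rule. After annotation, CHI was taken off the flavonoid list, a peroxiredoxin off the peroxidases, peptide deformylases off the defensins, and organelle loci off nuclear lists. Folds are ratios of geometric means. A group dim on all 3 arrays was raised, array by array, to that percentile where its signal was below it, which gives "at least", and no fold is given where no group was above it. Alternatives were quantile normalization, median centring, no filter, a 60th percentile filter, a pseudocount of 6.99, no intensity trend, the compared arrays alone, the replicate letter as a block, and each array left out. The number of arrays limits precision.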

Additional observations from a re-analysis of the deposited data

Results flagged for a closer look

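The stage effect, ATGE_98 minus ATGE_94 less ATGE_99 minus ATGE_95, differed at an adjusted p of 0.05 in limma for 1911 probe sets, and the genes of the report among them follow with the log2 difference between the pairs.

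Among genes of defence and secretion the effect without added sucrose was above that with it for PDF2.1 (1.01), OSM34 (0.55), ChiC (0.52) and WRKY47 (0.51), and below it for CHI (−1.51). For ER body and glucosinolate genes it was above for AT2G31790 (1.05), JAL22 (0.86), PYK10 (0.45), JAL33 (0.39) and NAI2 (0.38).

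In the sugar starvation list and in carbon and nitrogen genes the effect without sucrose was below that with it for AT1G19530 (−2.33), MGL (−1.75), GAT1_2.1 (−1.42), IVD (−0.59), MCCB (−0.49) and MCCA (−0.47). It was above for TMT1 (0.62) and SWEET16 (0.46), and for the glutathione transferase GSTU22 (0.38). AT3G07720 (−1.21) and LPR1 (−0.59) lay below.

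Wall, division and regulatory genes were split, with AGL42 (0.51), EXLA1 (0.40) and EXPA18 (0.39) above and HIS1-3 (−0.82), FBL17 (−0.73), EXPA9 (−0.63) and GAMMA-VPE (−0.34) below. The photosystem genes named in the report, psaA (−1.90), psbE (−1.01), PSAN (−0.63) and LHCB4.1 (−0.50), lay below. Among the 20 tested plastid-encoded photosystem genes the difference was called below for 6 and above for 2, beside 7.07% and 5.44% over all probe sets. The mitochondrial nad4 lay above (1.33).

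Of loci without a symbol, AT5G28630 (1.74), AT4G14060 (0.74) and AT4G36430 (0.62) lay above, and AT5G35940 (−1.60) and AT5G62340 (−0.61) below.

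For 6 genes at least 1 of the 4 groups was dim on all its arrays, so the fitted difference rests on signals below the dim level and is no measure of size. They are BGLU28 (−6.70; dim in ATGE_98, ATGE_94 and ATGE_95), PDF1.4 (1.87; dim in ATGE_94, ATGE_99 and ATGE_95), AT5G53880 (1.52), SP1L2 (1.02) and AT5G44400 (0.85), each dim in ATGE_94, and AT1G73120 (0.94; dim in ATGE_99). With dim signals raised to the 40th percentile, AT5G44400 was at least 5.85-fold higher without and 5.52-fold higher with sucrose, and SP1L2 at least 2.405-fold and 2.21-fold.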

How the results depend on the processing

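Between ATGE_98 and ATGE_94 the count of at least 2-fold calls was 466 with a pseudocount, against 735. Between ATGE_99 and ATGE_95 median centring gave 2346 higher and 5231 lower, and the 2-fold count was 1489 with no filter, 639 with the 60th percentile filter and 645 with a pseudocount. For the difference between the pairs, median centring gave 1412 above and 653 below, and the 60th percentile filter 177 of at least 2-fold. Fewer probe sets were tested under the stricter filter; the other causes were not tested. Leaving out 1 array at a time gave 5352 to 6008 calls between ATGE_98 and ATGE_94, and 1237 (without ATGE_94 replicate 1) to 2603 (without ATGE_94 replicate 3) for the difference, of which 675 to 1472 lay below. After quantile normalization JAL34 was at −0.018 and AT3G15450 at −0.044. Of 140 genes of the report called higher or lower, 115 kept their call under every alternative run and 25 lost it under some. Replicate letters did not pair the arrays (correlations of same-letter deviations 0.059, 0.021 and −0.031), and with the replicate letter as a block 6322 probe sets were called between ATGE_98 and ATGE_94, and 1864 for the difference.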
